A study of Mus musculus with 14 samples.

Results

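Ischemia was compared with normal conditions in the superior mesenteric artery (SMA) of Drp1 KO mice, with 4 mice in each group and all genes of the count table. These 8 mice were chosen by their labels out of 14 mice, and the other 6 were WT mice, 3 under normal conditions and 3 after ischemia. The mice were C57BL/6 and 8 weeks old, and each library was made from total RNA. The KO mice carry Drp1 flox/+ in the labels, whereas the study's methods describe heterozygous mice with a frameshift made with CRISPR/Cas9, with exon 2 as the targeted exon. No Cre driver is named in either source, so the labels alone do not settle whether 1 copy is disrupted in these mice. The study does report checks of the knockout, with PCR identification of the genotype and fewer reads of the targeted exon in KO mice. It also reports less Drp1 protein in KO than in WT mice by western blot, and weaker immunofluorescence in the artery. KO is used here as the study's name for the group. Ischemia was produced by blood loss through a femoral artery catheter under anesthesia, and whether the normal mice were catheterized is not given in the sources used here. A library name in the labels carries 2h for the ischemic mice while the study describes another ischemic period, so the duration is not settled. The study describes the 4 mice of each group as individuals, and the p-values measure the spread between them.

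Drp1, encoded by Dnm1l, is the GTPase that constricts and divides the outer mitochondrial membrane. The SMA is a muscular artery, in which smooth muscle surrounds a thin endothelial lining and loose connective tissue and fat adhere to the outside. When blood flow falls, endothelial cells can expose adhesion molecules to leukocytes through NF-kB, a transcription factor that is held in the cytoplasm by the inhibitor encoded by Nfkbia. Immediate-early genes, stress-response genes and genes induced by glucocorticoids also respond to such stress within hours.

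The total count was 34290559 to 40255851 per mouse under normal conditions and 32194665 to 33908094 after ischemia, so that 3 counts correspond to 0.0745 to 0.0932 CPM, a floor for counting error only. The markers of smooth muscle were abundant in all 8 libraries, with Myh11 at 3956 to 10374 CPM and Acta2 at 4730.4 to 16611 CPM. The exception was Tagln, another smooth muscle marker, which is listed at only 1.21 to 3.88 CPM. The 5 brown adipocyte markers summed to 1138 to 6132 CPM under normal conditions and to 964 to 4955 CPM after ischemia, so these markers varied widely within both groups. In these bulk samples, fewer cells of a type and less RNA per cell cannot be told apart. In 24 of the 286 combinations examined over both groups, 1 mouse stood apart from its group. Normal mouse 4 was that mouse in 10 of the 24, the most of any mouse.

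Of 15947 genes tested, 161 (1.01%) were higher and 106 (0.665%) were lower after ischemia at a false discovery rate (FDR) under 0.05 and a fold change over 1.5. The higher genes with the smallest p were Sash1, Pde4b, Rnd1 and Ifrd1, and the higher genes include 8 of 29 immediate-early genes, 6 of 17 genes of NF-kB and its feedback and 4 of 10 endothelial adhesion molecules. The lower genes include Myct1, Lyl1 and Lfng, the clock genes Per3 and Hlf and all 5 red cell markers. The median log2 fold change was 1.58 among the higher genes and −1.48 among the lower ones, against −0.014 over all genes. The 2 groups did not overlap for any of the 267 called genes, while they did not overlap for 12.4% of all tested genes. The smallest FDR was 0.00262, and 2986 genes (18.7%) had an unadjusted p under 0.05. The number of calls depended on the mice and on the fit. It was 23 higher and 7 lower without normal mouse 2, 38 and 13 without normal mouse 3, 44 and 14 without ischemic mouse 2, and 81 and 33 without ischemic mouse 3. Without ischemic mouse 4 it was 103 and 48, without ischemic mouse 1 it was 112 and 56, and without normal mouse 1 it was 249 and 167. In the fit of all 14 mice, which shares the wider spread of the WT mice, it was 33 and 19, and DESeq2 called 494 and 714. No called gene changed its direction in any of these fits. Since the groups do not overlap for any called gene, refits of the same mice could hardly reverse a direction, so this is no measure of stability. Of the 77 called genes that were named by rule, 24 were called in each of the 8 fits without a mouse and 26 in the fit of 14 mice, while Eln, Plaur, Mt2 and Dusp7 were called in 1 of the 8.

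**Figure D1:**
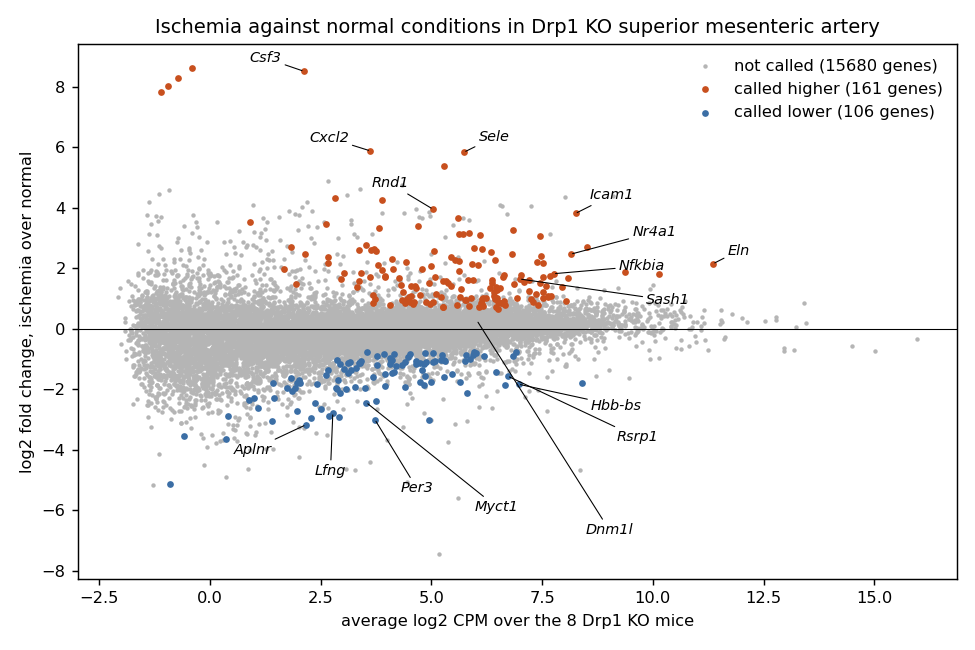
Log2 fold change (ischemia over normal) of each of the 15947 genes against its average log2 CPM over the 8 KO mice, with called genes in orange (higher) and blue (lower). The 4 orange points at the upper left are genes without a count in normal mice, and Dnm1l lies among the genes that were not called.

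Dnm1l (chr16:16312230-16358959, minus strand, GRCm38) was at 55.8, 61.6, 58.4 and 61.5 CPM in normal mice 1 to 4 and at 73.0, 71.0, 79.1 and 62.2 CPM in ischemic mice 1 to 4. Every ischemic mouse lay above every normal mouse, and the closest 2 values were 61.6 and 62.2 CPM. The mean went from 59.3 ± 2.77 to 71.3 ± 7.005 CPM (SD, n = 4 in each group), with a log2 fold change of 0.27 (standard error 0.12, FDR = 0.267), so the difference did not pass the test. The count adds up all exons and does not tell 1 copy of the gene from the other. Of the 15 tested genes of mitochondrial fission and fusion, 0 were called by edgeR, and 2 had an unadjusted p under 0.05. DESeq2 also called 0 of them. Their median log2 fold change was 0.09. Mfn2, which fuses outer membranes, was at 142 ± 49.1 and 166 ± 42.3 CPM (SD, n = 4), and Opa1, which fuses inner membranes, at 96.1 ± 37.3 and 99.8 ± 32.5 CPM (SD, n = 4).

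Genes of NF-kB and its feedback were higher in part. All 17 tested members had a log2 fold change above 0, 6 were called higher and the median was 1.03 (0.78 to 1.15 without 1 mouse, with 1 to 7 calls). Nfkbia (chr12:55489410-55492647, minus strand) encodes the inhibitor that NF-kB itself induces. It was at 103, 69.3, 111 and 99.6 CPM under normal conditions and at 281, 349.9, 327 and 396 CPM after ischemia. The lowest ischemic mouse was thus more than double the highest normal mouse, and the log2 fold change was 1.82 (standard error 0.19, FDR = 0.00649). Tnfaip3, which encodes the ubiquitin-editing enzyme A20 that ends NF-kB signalling, was at 7.33, 7.16, 6.52 and 19.2 CPM and after ischemia at 54.0, 66.1, 141 and 91.6 CPM. Normal mouse 4 was the highest of its group, and the rise was 8.80-fold (FDR = 0.0129). Birc3, an inhibitor of apoptosis, rose 2.98-fold and Nfkbiz, a nuclear member of the inhibitor family, 3.30-fold. The other 2 called members encode subunits of NF-kB, of which Relb rose 2.30-fold and Rel 3.89-fold.

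Adhesion molecules of the endothelium rose in part, with 4 of 10 tested members called higher. Icam1 (chr9:21015985-21028817, plus strand), which binds leukocyte integrins, was at 26.9, 35.6, 28.1 and 71.8 CPM in normal mice and at 455, 457, 817 and 553 CPM in ischemic mice. It rose 14.05-fold, with a log2 fold change of 3.81 (standard error 0.38, FDR = 0.00512), and was called in each of the 16 alternative fits. Sele, the endothelial selectin that lets leukocytes roll, was at 0.0287, 0.540, 2.60 and 4.15 CPM and after ischemia at 73.7, 94.99, 131 and 119.9 CPM. Selp, the selectin stored in endothelial granules, was at 2.76, 6.31, 7.62 and 12.04 CPM and after ischemia at 53.4, 38.04, 135 and 134 CPM. Vcam1, which binds monocytes and lymphocytes, was at 23.9, 47.6, 64.8 and 88.6 CPM and after ischemia at 239, 278, 443 and 227 CPM. The groups were apart for each of these 3 genes although the normal mice differed from each other, and the FDR was 0.0182 for Sele, 0.0165 for Selp and 0.0207 for Vcam1. Of the 8 fits without a mouse, 6 called Selp, 4 called Sele and 4 called Vcam1. In the fit of 14 mice Sele was called, while Selp (FDR = 0.0851) and Vcam1 (FDR = 0.120) were not. The other 6 tested members of the list were not called. Its median was 0.19, and it lay between −0.06 and 0.40 under the other settings. Pecam1 and Cdh5, which mark endothelium and were not called, were at 448 ± 84.4 and 389.8 ± 88.4 CPM and at 222 ± 32.8 and 225 ± 70.8 CPM (SD, n = 4).

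Of 19 tested chemokines, 2 were called, and both attract neutrophils. Cxcl1 was at 0.0287, 0.967, 1.004 and 5.31 CPM under normal conditions and at 58.5, 78.3, 58.6 and 107 CPM after ischemia (FDR = 0.0247). Cxcl2 had no count in normal mice 1 and 3, was at 0.199 and 1.49 CPM in normal mice 2 and 4 and was at 12.1, 19.1, 18.5 and 46.8 CPM after ischemia (FDR = 0.0407). Its call was kept in 1 of the 8 fits without a mouse. The median of the list was 0.22, and it was −0.58 among genes with at least 10 counts in every mouse and −0.62 without ischemic mouse 4. The markers of neutrophils themselves stayed low, with a summed level of 1.79 to 7.40 CPM under normal conditions and 2.00 to 20.4 CPM after ischemia. Among cytokines and Jak-Stat feedback genes, 4 of 19 were called higher. Csf3, the granulocyte growth factor, had 3 counts in all over the 4 normal mice and 1103 over the 4 ischemic mice. The ratio of summed CPM was 399.6 (exact 95% interval 136 to 1941, counting error only), and the ischemic mice ran from 48 to 656 counts. Socs3, which blocks Jak-Stat signalling, was at 47.5, 40.1, 172 and 159 CPM after ischemia against 7.39 to 16.7 CPM before, so the ischemic mice fell into a lower and a higher pair. Socs2 rose 2.85-fold and Csf1, the macrophage growth factor, 1.86-fold.

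The promoters of the called members of these 4 lists were searched for the NF-kB site on both strands, in RefSeq windows of 300 bases from 250 before to 50 after each start (GRCm38.p6). Of 16 such genes, 11 had a window and 6 held the site. Among all tested genes with a window it was held by 12.6% of 11224 genes, among the genes called higher by 21.8% of 124, and among those called lower by 11.6% of 86. A match in these letters is no evidence of binding. All 11 genes with a window were called higher. Only the 6 windows that hold the NF-kB site are shown, with the site in capitals. The first base of the site lies 29 bases before the start in Nfkbia, 125 and 12 in Tnfaip3, 71 in Cxcl1, 97 in Cxcl2, 92 in Rel and 154 in Csf1, and where matches overlap the capitals join them.
Nfkbia, chr12:55492598-55492897, minus strand: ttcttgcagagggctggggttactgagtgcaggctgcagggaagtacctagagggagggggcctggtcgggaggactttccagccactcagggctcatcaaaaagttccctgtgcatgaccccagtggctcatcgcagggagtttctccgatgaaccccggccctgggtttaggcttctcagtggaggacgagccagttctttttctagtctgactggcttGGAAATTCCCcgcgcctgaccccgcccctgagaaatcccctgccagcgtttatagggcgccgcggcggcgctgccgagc
Tnfaip3, chr10:19015361-19015660, minus strand: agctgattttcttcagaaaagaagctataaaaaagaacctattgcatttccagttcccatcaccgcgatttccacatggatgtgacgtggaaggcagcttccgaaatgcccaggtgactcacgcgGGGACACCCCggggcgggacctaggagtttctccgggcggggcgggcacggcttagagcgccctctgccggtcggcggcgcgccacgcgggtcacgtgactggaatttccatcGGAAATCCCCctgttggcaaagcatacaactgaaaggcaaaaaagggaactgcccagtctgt
Cxcl1, chr5:90890995-90891294, plus strand: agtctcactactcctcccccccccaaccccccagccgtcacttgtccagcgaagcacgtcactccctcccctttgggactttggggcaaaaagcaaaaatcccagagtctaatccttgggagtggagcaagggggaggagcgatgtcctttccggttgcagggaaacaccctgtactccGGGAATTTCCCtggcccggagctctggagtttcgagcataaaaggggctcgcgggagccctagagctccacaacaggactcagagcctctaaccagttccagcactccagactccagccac
Cxcl2, chr5:90903649-90903948, plus strand: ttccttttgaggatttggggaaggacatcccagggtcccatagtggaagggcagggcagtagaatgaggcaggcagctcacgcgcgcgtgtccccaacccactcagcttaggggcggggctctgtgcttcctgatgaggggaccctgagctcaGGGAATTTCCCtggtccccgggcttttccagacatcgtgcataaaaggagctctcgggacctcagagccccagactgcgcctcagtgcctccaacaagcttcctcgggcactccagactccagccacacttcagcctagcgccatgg
Rel, chr11:23770920-23771219, minus strand: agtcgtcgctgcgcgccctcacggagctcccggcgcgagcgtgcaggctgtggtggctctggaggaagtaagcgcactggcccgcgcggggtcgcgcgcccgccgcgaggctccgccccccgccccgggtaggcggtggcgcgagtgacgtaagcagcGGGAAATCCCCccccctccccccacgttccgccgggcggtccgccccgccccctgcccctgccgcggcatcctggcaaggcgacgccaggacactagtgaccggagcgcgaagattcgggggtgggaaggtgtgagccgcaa
Csf1, chr3:107760420-107760719, minus strand: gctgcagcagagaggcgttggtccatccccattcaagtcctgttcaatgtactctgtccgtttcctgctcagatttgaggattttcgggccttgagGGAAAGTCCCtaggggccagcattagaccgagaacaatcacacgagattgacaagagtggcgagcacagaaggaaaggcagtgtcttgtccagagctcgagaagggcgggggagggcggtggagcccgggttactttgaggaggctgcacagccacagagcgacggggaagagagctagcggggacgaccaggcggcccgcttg

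The other 5 genes with a window, among them Icam1 and Sele, held no NF-kB site within these letters. Of the other motifs searched, the AP-1 site (TGANTCA) was in 9.30% of the genes called lower, 11.3% of those called higher and 6.71% of tested genes. The cyclic AMP response element (TGACGTCA) was in 1.16%, 4.84% and 3.32%, the E-box (CACGTG) in 6.98%, 15.3% and 11.2%, and the heat shock element (GAANNTTC) in 4.65%, 7.26% and 7.15%. The core of the hypoxia response element (ACGTG), which every E-box contains, was in 23.3%, 35.5% and 28.2%. The serum response element was in 0%, 1.61% and 1.66%, and the glucocorticoid response element was found in 0 called genes and 1 tested gene. Genes with several starts have several windows, so a gene's chance of a match grows with their number.

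**Figure D2:**
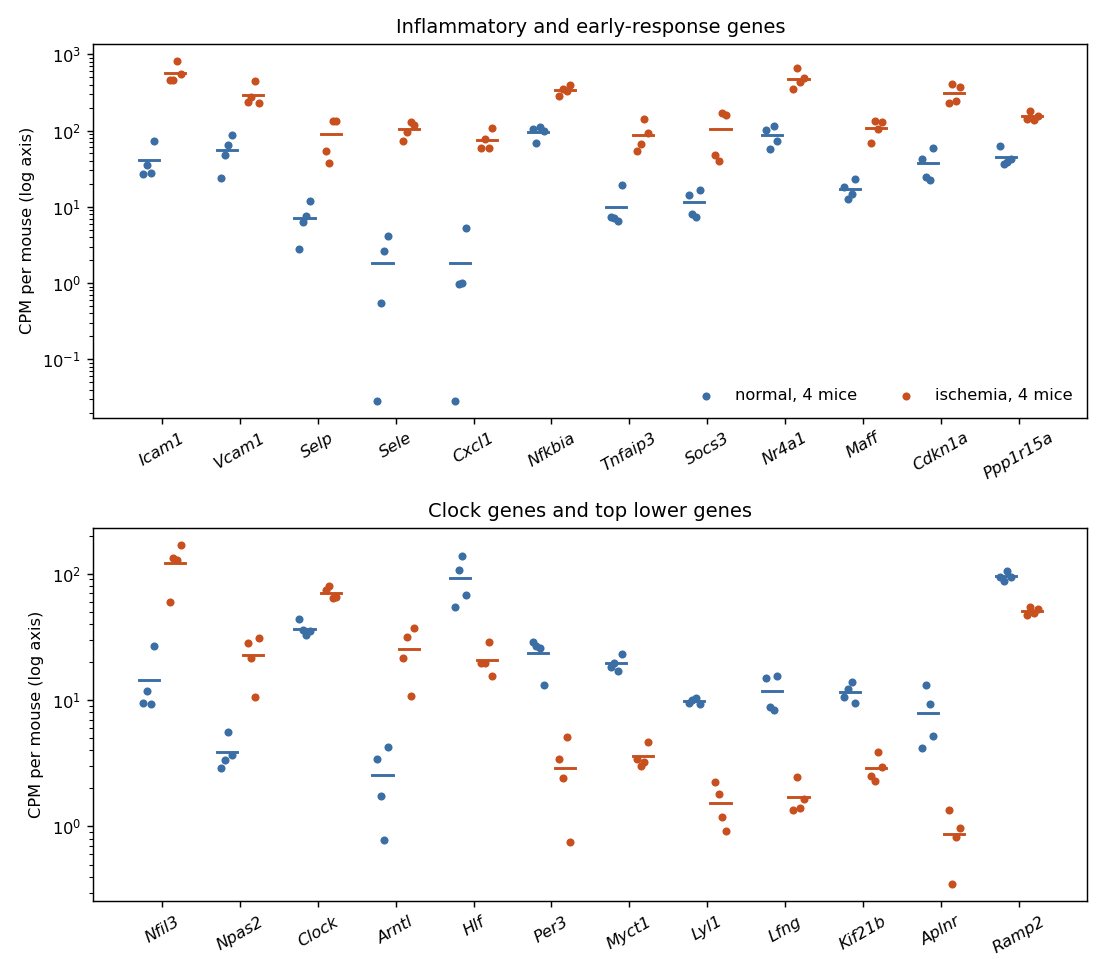
CPM of 24 called genes in each KO mouse on a log axis, with normal mice in blue, ischemic mice in orange and a line at each mean of 4 mice. For each gene the 2 groups are apart, and the gap is widest for Sele and Cxcl1, of which normal mouse 1 had 0.0287 CPM.

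Immediate-early genes, which cells transcribe first after a stimulus, had 8 of 29 tested members called higher and 0 lower, with a median of 0.84. All 3 members of the orphan nuclear receptor family Nr4a were called. Nr4a1 (chr15:101254269-101274795, plus strand) was at 102, 56.9, 115 and 73.8 CPM under normal conditions and at 347, 651, 436 and 488 CPM after ischemia. This was a 5.52-fold rise, with a log2 fold change of 2.47 (standard error 0.28, FDR = 0.00711). Nr4a2 rose 5.18-fold and Nr4a3 8.82-fold. Maff, a small Maf transcription factor, was at 18.1, 12.6, 14.7 and 23.0 CPM and then at 68.1, 133, 104 and 128 CPM (FDR = 0.00512). Fosl2, a Fos-related subunit of AP-1, rose 3.46-fold, the stress-induced transcription factor Atf3 4.72-fold, the nuclear protein gene Csrnp1 4.30-fold and Ctgf, a secreted matrix protein, 3.51-fold. The founding members were not among the called genes. Fos was at 29.4 ± 12.99 CPM and 36.3 ± 12.6 CPM (SD, n = 4), and Egr1 at 171 ± 80.7 CPM and 202 ± 28.1 CPM (SD, n = 4). Of the 10 tested dual-specificity phosphatases, which switch off MAP kinases, Dusp7 was called lower, from 41.5 ± 4.48 to 23.7 ± 3.94 CPM (SD, n = 4).

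The called genes with the smallest p also include regulators of signalling and the cytoskeleton that are in none of the lists. Sash1, a scaffold protein in endothelial signalling, had the smallest p of all genes. It was at 61.1, 57.3, 64.8 and 64.4 CPM in normal mice and at 180.2, 188, 210.5 and 195 CPM in ischemic mice, with little spread in either group. Pde4b, which degrades cyclic AMP, went from 29.5, 28.03, 31.4 and 29.4 CPM to 103, 156, 186 and 128 CPM. Both had an FDR of 0.00262, and their folds were 3.13 and 4.84. Rnd1, a small GTPase that loosens actin fibres, rose 15.5-fold, Gem, a small GTPase that inhibits calcium channels, 5.75-fold, and Pip5k1b, a kinase of membrane phosphoinositides, 3.33-fold. Ifrd1, a transcriptional co-regulator, rose 2.92-fold and Eva1a, a regulator of autophagy and cell death, 6.03-fold. Nod2, a sensor of bacterial peptidoglycan, rose 6.18-fold, the stress-responsive kinase gene Plk3 4.57-fold, and Trpv4, a calcium channel that opens on stretch and swelling, 2.66-fold. All 15 genes with the smallest p among the higher ones were called in each of the 8 fits without a mouse, and 12 of them in the fit of 14 mice. These genes were picked by their p in the same mice, so the counts are no independent measure of stability. A further 4 called genes had no count in any normal mouse and were chosen here after their values were seen. Gpr3 and Sstr3, which encode G protein-coupled receptors, had 12 to 40 and 10 to 73 counts per ischemic mouse. Their mean CPM over the ischemic mice was 9.51-fold and 13.3-fold the mean CPM of a floor of 3 counts per normal library. The others are the predicted genes Gm16548 and Gm39286, with means 16.5-fold and 11.1-fold that of the floor. Single ischemic mice lay below and above these means.

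Stress-response and growth-arrest genes rose in part. Of the 18 tested genes of the unfolded protein and integrated stress response, 2 were called higher and the median was 0.57. Ppp1r15a (chr7:45522916-45526268, minus strand), which reverses the block of translation in that response, was at 62.2, 36.3, 38.7 and 42.0 CPM and after ischemia at 143, 179, 136 and 156 CPM. Atf4, its main transcription factor, was at 147, 119.6, 118 and 120.2 CPM and after ischemia at 272, 297, 236 and 274 CPM. Normal mouse 1 was the highest of its group for both genes and still below every ischemic mouse, and the FDR was 0.00711 and 0.00948. Of 17 heat shock proteins, the co-chaperone gene Bag3 was called (2.06-fold), and the median was 0.52. Cdkn1a, the cell cycle inhibitor p21, was at 42.6, 24.9, 22.6 and 58.7 CPM and rose to 230.3, 412, 241 and 376 CPM, which is 8.46-fold (FDR = 0.00711). Gadd45b and Gadd45g, which act in growth arrest and DNA damage, rose 2.55-fold and 2.66-fold. These 3 were the called members among 18 tested genes of cell cycle and growth arrest. That list had 9 members with a log2 fold change above 0, 9 below 0 and a median of −0.02. Of 23 apoptosis regulators, Bcl2l1, which protects mitochondria from permeabilisation, was called, and it rose from 90.0 ± 34.7 to 259 ± 41.6 CPM (SD, n = 4, FDR = 0.0251). Bcl2l1 was called in 2 of the 8 fits without a mouse and not in the fit of 14 mice (FDR = 0.0851).

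Of the 22 tested glucocorticoid-responsive genes, 5 were called higher and 1 lower, with a median of 0.97. The higher ones include Cdkn1a and Gadd45g, which other lists also hold. Ddit4, an inhibitor of mTOR, was at 82.3, 41.7, 73.6 and 41.6 CPM and after ischemia at 240.5, 345, 231 and 279.9 CPM (FDR = 0.00814). The metal-binding protein genes Mt2 and Mt1 were higher, and normal mouse 1 had the highest level of its group in both. Mt2 was at 205, 35.5, 66.2 and 83.1 CPM and after ischemia at 577, 602, 727 and 634 CPM (FDR = 0.0252), and Mt1 rose 3.68-fold. The lower gene was Tsc22d3, a classical glucocorticoid target, which went from 152 ± 20.4 to 89.9 ± 5.97 CPM (SD, n = 4, FDR = 0.0303). Of the 22 members, 17 had a log2 fold change above 0 and 5 below 0. In edgeR, 13 were higher and 2 lower at an unadjusted p under 0.05.

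Of 22 tested hypoxia targets, edgeR called Hilpda, a lipid droplet protein, and DESeq2 called 2 members. Another 6 were higher and 1 was lower at an unadjusted p under 0.05. Hilpda was at 4.34, 3.58, 3.38 and 2.82 CPM under normal conditions and 8.67, 17.3, 12.2 and 12.5 CPM after ischemia (FDR = 0.0129). The median of the list was 0.32. Of 17 glycolytic enzymes 0 were called by edgeR and 1 by DESeq2, with 1 at an unadjusted p under 0.05 in edgeR, and the median was 0.05. Aldoa was at 1059 to 3773 CPM in normal mice and at 929.7 to 2920.1 CPM in ischemic mice, so the groups overlapped. Among 28 antioxidant genes, 0 were called by edgeR or DESeq2, with 2 at an unadjusted p under 0.05, and the median was 0.04.

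Of 19 tested circadian clock genes, 4 were called higher and 2 lower. The total of 6 calls ran from 0 without normal mouse 2 to 7 without normal mouse 4, and it was 1 in the fit of 14 mice and 11 with DESeq2. The clock is a loop in which the proteins of Arntl, Clock and Npas2 drive Per and Cry genes, whose proteins repress the drivers, and output genes such as Hlf follow the rhythm. Arntl was at 3.42, 1.73, 0.775 and 4.28 CPM under normal conditions and at 21.7, 31.7, 10.7 and 37.3 CPM after ischemia. Npas2 was at 2.87, 3.33, 5.59 and 3.67 CPM and after ischemia at 28.2, 21.5, 10.5 and 31.2 CPM. Clock itself rose 1.93-fold. Ischemic mouse 3 was the lowest of its group for both Arntl and Npas2, and still above all normal mice. Nfil3, a repressor that opposes the output genes, rose 8.53-fold (FDR = 0.0129). Per3 was at 28.6, 26.5, 25.7 and 13.1 CPM and fell to 3.41, 2.40, 5.06 and 0.757 CPM (FDR = 0.0223). Hlf was at 54.9, 106, 138 and 67.3 CPM and fell to 19.5, 19.7, 28.9 and 15.4 CPM (FDR = 0.0152). The hour of the day at which the tissue was taken is not given in the sources used here, so it cannot be told apart from ischemia.

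**Figure D3:**
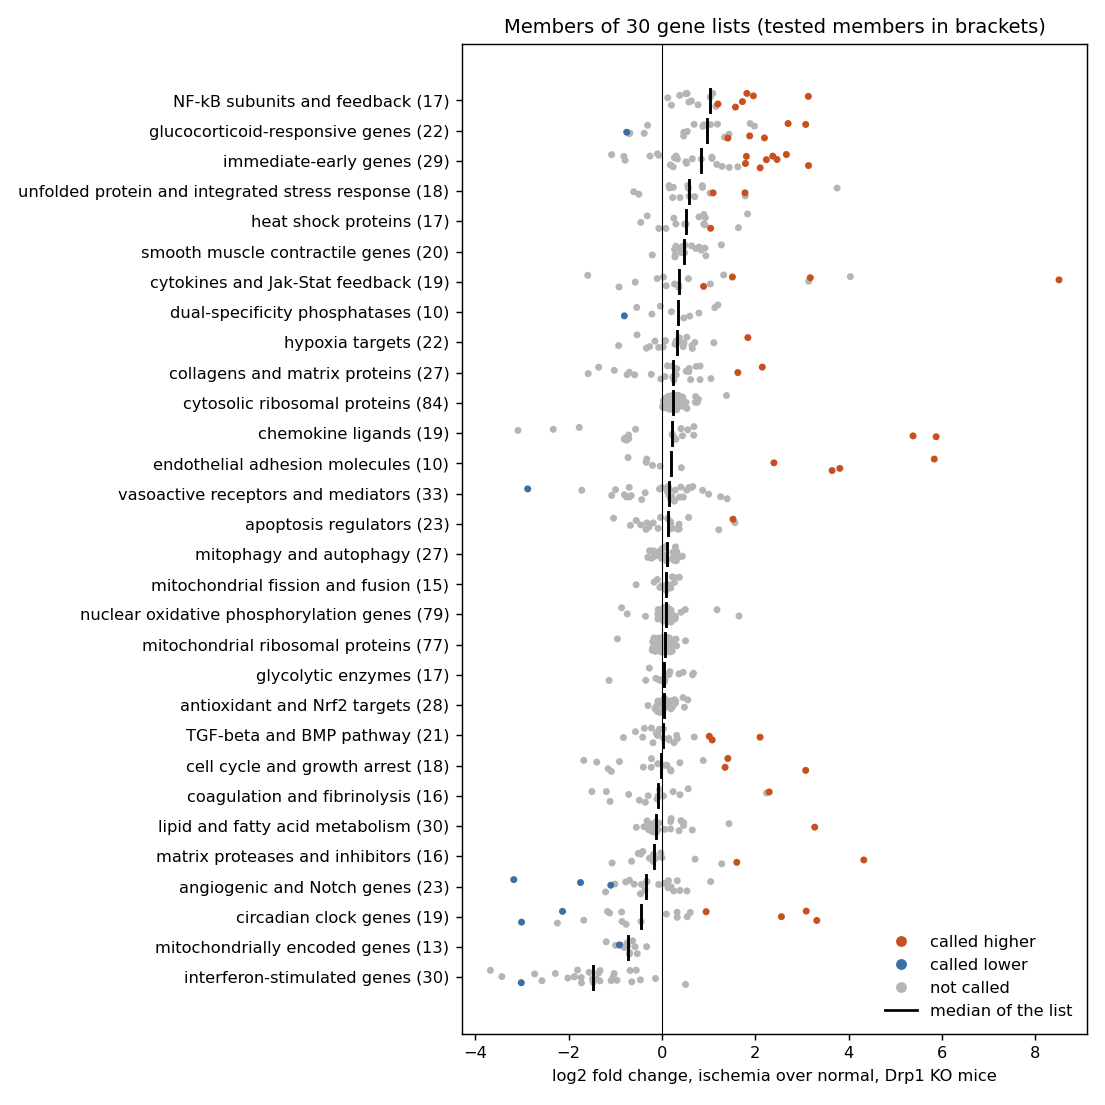
Log2 fold change (ischemia over normal, KO mice) of every tested member of 30 gene lists, ordered by the list's median (black line). Medians run from −1.48 for interferon-stimulated genes to 1.03 for NF-kB genes, and the medians of nuclear oxidative phosphorylation, mitochondrial ribosomal protein and autophagy genes are 0.08, 0.06 and 0.10.

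The 15 lower genes with the smallest p have varied functions, and several are known from endothelium and Notch signalling. Myct1 (chr10:5593775-5606904, plus strand), an endothelial membrane protein gene, was at 18.3, 19.6, 16.9 and 23.0 CPM in normal mice and at 3.41, 3.00, 3.26 and 4.64 CPM in ischemic mice. This was 5.43-fold lower, with a log2 fold change of −2.44 (standard error 0.20, FDR = 0.00262). Lyl1, a transcription factor of blood and endothelial cells, was at 9.45, 10.04, 10.3 and 9.31 CPM and fell to 2.24, 1.80, 1.19 and 0.914 CPM. Lfng, which adds sugars to Notch receptors, was at 14.9, 8.84, 8.28 and 15.4 CPM and fell to 1.34, 2.47, 1.40 and 1.64 CPM. Both had an FDR of 0.00711. Kif21b, a kinesin motor, was 3.98-fold lower, Amotl2, a junction protein of the angiomotin family, 2.80-fold, and Rsrp1, named for its arginine and serine repeats, 2.97-fold. Ramp2, the co-receptor through which adrenomedullin acts on vessels, fell from 94.997 ± 6.91 to 50.8 ± 3.15 CPM (SD, n = 4, FDR = 0.00927). Stard8 and Arhgef3, which regulate small GTPases, and Arhgdib, which binds them, were 2.22-fold, 2.25-fold and 2.04-fold lower. Rhobtb2, an atypical GTPase, was 2.15-fold lower. The remaining genes are Efna1, an ephrin ligand (2.58-fold lower), Zbtb14, a zinc finger repressor (2.04-fold), Trmt1l, a tRNA methyltransferase-like protein (2.31-fold), and Hlf. Of these 15 genes, 7 were called in each of the 8 fits without a mouse and 6 in the fit of 14 mice, fewer than among the higher genes. Their FDR ran up to 0.0152, against 0.00711 among the 15 higher genes, so the 2 sets did not start from equal values.

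Among 23 tested angiogenic and Notch genes, 3 were called lower, 0 higher, and the median was −0.33. Aplnr, the apelin receptor, was at 4.14, 13.05, 9.33 and 5.22 CPM and fell to 1.34, 0.348, 0.823 and 0.977 CPM (FDR = 0.0204). Sox18, an endothelial transcription factor, was at 39.5, 38.2, 31.2 and 88.4 CPM and fell to 11.5, 16.5, 13.04 and 17.7 CPM (FDR = 0.0349). Normal mouse 4 was far above the rest for Sox18. Jag1, a Notch ligand, was 2.14-fold lower (FDR = 0.0427). Aplnr was called in 3, Sox18 in 2 and Jag1 in 2 of the 8 fits without a mouse. None of these 3 genes was called in the fit of 14 mice (FDR = 0.0851, 0.108 and 0.0597). Endothelial markers as a whole had a median of −0.28 with 0 of 6 called by edgeR, 1 by DESeq2 and 1 at an unadjusted p under 0.05, and their sums of 906 to 1185 CPM under normal conditions and 613 to 1080 CPM after ischemia overlapped. What part the endothelial share has in these values was not tested.

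In the vessel wall, 0 of 20 contractile genes were called by edgeR, with 7 at an unadjusted p under 0.05, and 19 of the 20 had a log2 fold change above 0 (median 0.48). DESeq2 called 4 of them. Acta2, smooth muscle actin, was at 12932, 5819, 7930.5 and 4730.4 CPM and at 16611, 16069, 9884 and 13782 CPM after ischemia, and the groups overlapped. Of 33 vasoactive receptors and mediators, Adra2a, an adrenergic receptor, was called lower, from 6.98, 10.7, 21.6 and 5.67 CPM to 2.12, 1.93, 0.487 and 1.58 CPM (FDR = 0.0370). Of 27 collagens and matrix proteins, 2 were called higher, both of elastic fibres. Eln, elastin, was at 1103, 1063, 1123 and 584 CPM and rose to 6574, 5806, 1911 and 2902 CPM, and Lox, which crosslinks elastin and collagen, was at 57.8, 109, 75.7 and 47.7 CPM and rose to 280.2, 259, 157 and 202 CPM. Ischemic mice 1 and 2 were the higher pair for both genes, and the FDR was 0.0377 and 0.0260. Eln was called in 1 and Lox in 4 of the 8 fits without a mouse, and neither in the fit of 14 mice (FDR = 0.209 and 0.268). The summed smooth muscle markers went from 11786 to 28605 CPM under normal conditions to 22387 to 34768 CPM after ischemia and overlapped. Their part in the rise of Eln and Lox was not tested.

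The matrix proteases Adamts9 and Adamts4 were called among 16 members of the list of matrix proteases and inhibitors, with 3.04-fold and 20.1-fold rises. Of the 16 members, 12 had a log2 fold change below 0, and the median was −0.17. Adamts4, which cleaves aggrecan and versican, was at 0.274 to 1.38 CPM in normal mice and at 6.72, 3.57, 25.8 and 17.6 CPM in ischemic mice. Of 16 coagulation and fibrinolysis genes, Plaur, the urokinase receptor, was called, from 5.81 ± 0.646 to 28.6 ± 16.6 CPM (SD, n = 4, FDR = 0.0275). Its normal mice were within 5.12 to 6.43 CPM, while ischemic mice ran from 10.97 to 46.2 CPM. The coagulation and fibrinolysis list had 10 of 16 members below 0 and a median of −0.09. The 21 TGF-beta and BMP genes had a median of 0.03, with 11 above and 10 below 0, and 3 were called higher. These were Skil, a repressor of Smad proteins, with 2.02-fold, Inhbb, an activin subunit, with 4.29-fold, and the receptor gene Tgfbr1 with 2.11-fold.

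Mitochondrial genes fell into a mitochondrially encoded group that was lower and nuclear groups with medians near 0. The 13 mitochondrially encoded genes took 19.9%, 16.8%, 15.8% and 18.6% of counts in normal mice and 11.3%, 11.6%, 13.8% and 11.1% in ischemic mice. COX2, COX3, ATP6, ATP8, ND3 and ND4L together hold little of this share, since each was at or under 259 CPM in every mouse, so the share is mainly that of the other 7 genes. The groups did not overlap, and the mean fell from 17.8% ± 1.84 to 11.9% ± 1.25 (SD, n = 4). A two-sided exact permutation test over the 70 possible orders gave p = 0.0286, the lowest value that this design can reach. All 13 genes had a log2 fold change below 0, with a median of −0.73, and 11 of them an unadjusted p under 0.05. ATP6, a subunit of the ATP synthase, was called (1.88-fold lower, FDR = 0.0477), but in 0 of the 8 fits without a mouse. DESeq2 called 10 of the 13. Its level of 69.0 to 175 CPM is far below that of COX1, at 43655 to 82197 CPM, and reads of genes with near-identical nuclear copies can be split, so ATP6 is uncertain. COX1 was at 71785 ± 12063 and 57144 ± 9279 CPM and CYTB at 41133 ± 5951 and 24741 ± 4388 CPM (SD, n = 4). Neither was called by edgeR, and DESeq2 called CYTB. The 79 nuclear genes of oxidative phosphorylation had a median of 0.08, the 77 of mitochondrial ribosomal proteins 0.06 and the 27 of mitophagy and autophagy 0.10. In these lists 0 genes were called by edgeR, with 2, 0 and 2 genes at an unadjusted p under 0.05. DESeq2 also called 0 genes in these lists. The levels varied between mice of a group, and the nuclear oxidative phosphorylation genes summed to 9882 to 26736 CPM in normal mice and 8441 to 25042 CPM in ischemic mice. Among 30 genes of lipid metabolism, Ppargc1a, a coactivator of mitochondrial biogenesis, was called. It was at 7.39, 24.1, 15.4 and 38.7 CPM and rose to 74.4, 219.8, 407 and 126 CPM (FDR = 0.0370). Ppargc1a was called in 3 of the 8 fits without a mouse and not in the fit of 14 mice (FDR = 0.197).

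**Figure D4:**
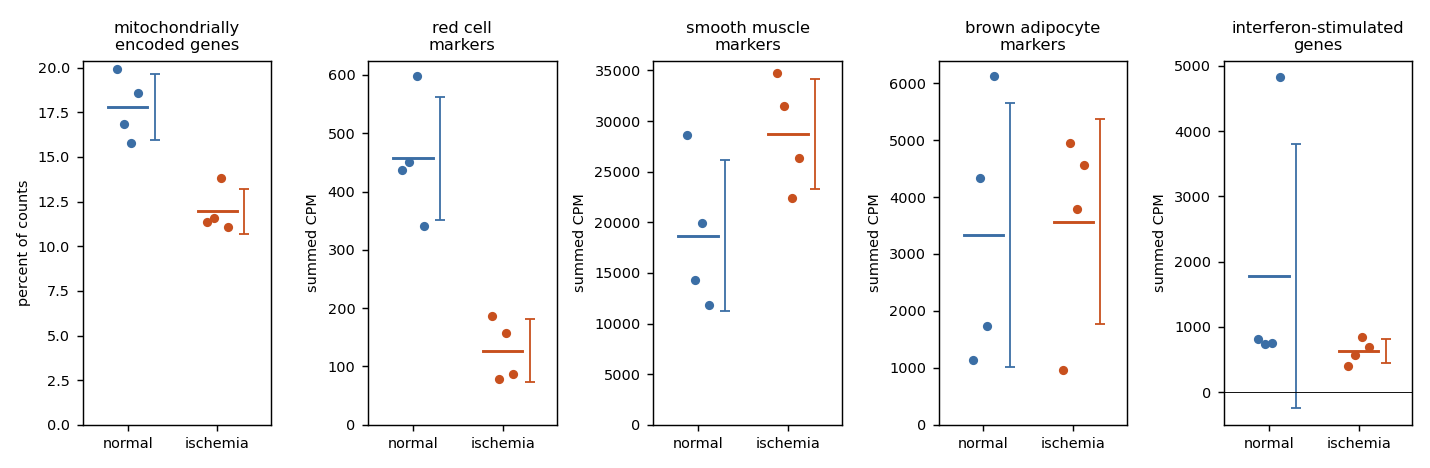
Share of counts on mitochondrially encoded genes and summed CPM of 4 groups of genes in each KO mouse, with the mean (line) and SD (bar) of 4 mice. Mitochondrial shares and red cell markers do not overlap between groups, smooth muscle and brown adipocyte markers do, and normal mouse 4 stands far above the others for interferon-stimulated genes, so that its group's SD reaches below 0.

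All 5 red cell markers were called lower by edgeR and by DESeq2. In the fit of 14 mice and in the fits without normal mouse 2, normal mouse 3 or ischemic mouse 2, 0 of the 5 were called, and the median of −1.86 lay between −2.06 and −1.66 without 1 mouse. The hemoglobin gene Hbb-bs was at 182, 193, 265 and 144 CPM in normal mice and at 79.5, 35.0, 67.1 and 38.2 CPM in ischemic mice, which is 3.56-fold lower (FDR = 0.0217). Hba-a1 was 3.64-fold lower, and Alas2, the first enzyme of heme synthesis in red cell precursors, went from 15.2 ± 2.30 to 4.05 ± 1.88 CPM (SD, n = 4). The summed markers were at 342 to 598 CPM under normal conditions and at 78.1 to 187 CPM after ischemia. Hemoglobin genes are near-identical pairs, so their reads may be split between copies. Of 6 macrophage markers, Cd68 was called lower, from 22.6 ± 5.91 to 8.09 ± 2.16 CPM (SD, n = 4, FDR = 0.0237), and all 6 had a log2 fold change below 0. T cell markers were scarce, with a sum of at most 29.8 CPM. The sum was 7.24, 1.11, 2.71 and 29.8 CPM in normal mice 1 to 4 and 0.179 to 2.44 CPM in ischemic mice. Normal mouse 4 thus made the upper end, and the groups overlapped.

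Of 30 tested interferon-stimulated genes, 29 had a log2 fold change below 0 and the median was −1.48. edgeR called Ifit3, an antiviral protein, in 3 of the 8 fits without a mouse but not in the fit of 14 mice, and DESeq2 called 10 members. Ifit3 was at 36.9, 30.3, 31.6 and 119 CPM and fell to 4.36, 6.74, 10.2 and 5.58 CPM (FDR = 0.0223). The size of the median rested on normal mouse 4, and without that mouse it was −0.50. The summed list was at 817, 739, 749 and 4822 CPM in normal mice and at 404, 572, 841 and 693 CPM in ischemic mice, so that normal mouse 4 lay far apart and the other normal mice overlapped the ischemic ones. Gbp2, an interferon-induced GTPase, was at 1223 CPM in normal mouse 4 and at 31.8 to 57.5 CPM in the other 3 normal mice.

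The same contrast in the WT mice, 3 against 3, shares no sample with the KO mice. It was taken from the fit of all 14 mice, in which 2 genes were called in WT mice, Icam1 and Nfkbia. Of the 161 genes called higher in KO mice, 155 had a log2 fold change above 0 in WT mice, with a median of 0.90, and of the 106 called lower, 96 were below 0, with a median of −0.64. Of all 15947 genes, 49.1% were above 0 in WT mice. The test of whether ischemia changed a gene differently in KO and WT mice covered 17693 genes and called 0 of them in edgeR, with 765 at an unadjusted p under 0.05 and a smallest FDR of 0.946. Without 1 mouse the number at an unadjusted p under 0.05 ran from 523 to 2121, the latter without normal WT mouse 1, again with 0 calls. DESeq2 called 13 genes in this test, among them Nr4a1, Atf3 and Kif21b. A p that misses the threshold does not show equal responses, as the WT groups were wide and small. Normal WT mouse 3 is listed with lane 1 and every other library with lane 8. It also had the lowest total count, 25612646. Its mitochondrially encoded share was 9.40%, against 18.7% and 25.1% in normal WT mice 1 and 2. What part the lane has in the WT values and in the test of the difference was not tested.

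Icam1 and Nfkbia were called in both genotypes. Icam1 had a log2 fold change of 4.62 in WT mice, and the KO change minus the WT change was −0.85 (standard error 0.70). For Nfkbia the WT value was 1.77 and the difference 0.02 (standard error 0.28). Among the named genes, Kif21b and Nr4a1 had the smallest unadjusted p in the test of the difference. Nr4a1 was at 425 ± 223 CPM in normal and 413 ± 133 CPM in ischemic WT mice (SD, n = 3), so that normal KO mice, at 87.0 ± 26.5 CPM (SD, n = 4), were below both. The difference of its log2 fold changes was 2.48 (standard error 0.54, unadjusted p = 0.000421, FDR = 0.946). Kif21b was at 5.96 ± 1.10 and 6.01 ± 1.65 CPM in WT mice (SD, n = 3), between the normal KO level of 11.6 ± 1.94 and the ischemic KO level of 2.91 ± 0.693 CPM (SD, n = 4). Its difference was −2.04 (standard error 0.38, FDR = 0.946). Arntl was at 31.1 ± 29.4 and 42.3 ± 6.18 CPM in WT mice (SD, n = 3), and Eln at 5474 ± 4532 and 9199 ± 4155 CPM (SD, n = 3), both with normal levels above those of normal KO mice. The FDR of the difference was 0.946 for Arntl and for Eln.

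**Figure D5:**
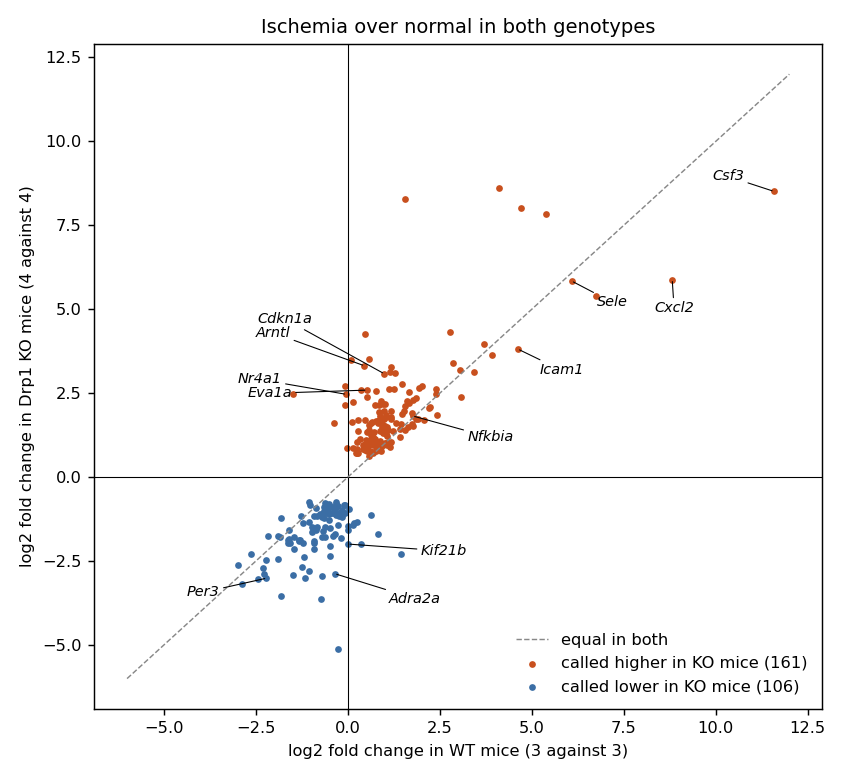
Log2 fold change (ischemia over normal) in KO mice against that in WT mice for the 267 genes called in KO mice, with a dashed line where both are equal. Icam1 and Nfkbia lie near the line, while Nr4a1 and Kif21b lie near 0 in WT mice, and fits with 0 counts in a group (such as Csf3) give folds that depend on the prior count.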

How the data were processed

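Total RNA of the superior mesenteric artery was sequenced in 14 mice, and the authors deposited raw counts per gene symbol, with no normalization. Per the submitters' processing notes the reads were aligned with HISAT2 2.0.4 to mm10, while the counter, annotation and strand setting are not given in the sources used here, so reads of overlapping genes, antisense genes and near-identical copies may be split.

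Of 46095 symbols, 26145 had a count in the 8 KO mice and 15947 passed edgeR's expression filter. Ischemia was tested against normal conditions with edgeR 4.0.16 (quasi-likelihood, TMM factors, Benjamini-Hochberg adjustment over all tested genes, R 4.3.3), and genes were called at an FDR under 0.05 and a fold over 1.5. CPM used library sizes scaled by TMM, and log2 CPM in limma and in the checks of the libraries used a prior count of 2. A fit of all 14 mice gave the WT contrast and the test of the difference between genotypes. DESeq2 1.42.0 and limma 3.58.1 were alternatives. The share of mitochondrially encoded counts was compared by an exact permutation test. The steps were tested on simulated data. No 2 libraries of a group were alike within sampling noise (chi-square per degree of freedom at least 59.1 over 12 pairs).

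Named genes were Dnm1l, the 15 higher and 15 lower called genes with the smallest p whose groups do not overlap (predicted Gm and Rik genes left out), and up to 4 called members with the smallest p from each of 30 gene lists and 19 cell type marker lists. Where fewer than 2 members were called, up to 2 uncalled members with the highest mean CPM were given as values. Arntl, Per3, Atf3, Csrnp1, Ctgf, Nr4a3, Fos, Egr1, Mt1, Tsc22d3, Rel, Relb and Tagln lie outside this rule and were chosen after their values were seen. Lists are described by counts and medians, without a test of the list. The members and lists were chosen with earlier results of these data known. Gene coordinates are from GENCODE M21 (GRCm38) and promoter windows from RefSeq (GRCm38.p6).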

Additional observations from a re-analysis of the deposited data

Results flagged for a closer look

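In 24 of 286 groups of 4 mice (8.39%), the highest or lowest mouse lay far from the other 3 by Dixon's test. Chance gives about 1 in 20 for independent, normally distributed values. The values here are CPM of related genes, many of them named because they were called, so this share cannot be judged against that rate. Normal mouse 4 accounted for 10 of these groups. It was the highest normal mouse for Gbp2 at 1223 CPM, Ifit3 at 119 CPM, Tnfaip3 at 19.2 CPM, Cxcl2 at 1.49 CPM and Nfil3 at 26.6 CPM. It was also the highest for Pfkfb3 (a glycolytic regulator) at 502 CPM, Sox18 at 88.4 CPM, Scd1 (a fatty acid desaturase) at 19181 CPM and Ckm (muscle creatine kinase) at 10.7 CPM, and the lowest for Eln at 584 CPM.

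Normal mouse 1 stood apart for Atf4 at 147 CPM, for the B cell gene Cd79a at 3.79 CPM, for the platelet integrin gene Itga2b at 21.7 CPM and for the lymphatic receptor gene Flt4 at 34.9 CPM. Normal mouse 3 was the 1 normal mouse with any count of Csf3, at 0.0684 CPM. Ischemic mouse 3 stood apart for Gbp2 at 111 CPM, Cd68 at 11.3 CPM, the neutrophil genes S100a9 at 8.32 CPM and Csf3r at 3.69 CPM, and Cd79b at 0.975 CPM. Ischemic mouse 4 had Ckm at 168 CPM and the mesothelial gene Upk3b at 16.4 CPM. Ischemic mouse 1 stood apart for the collagen gene Col1a2 at 2259.8 CPM and for the enterocyte gene Vil1 at 0.179 CPM.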

How the results depend on the processing

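The counts of called genes depended on the fit. Against 161 higher and 106 lower genes, the fit of all 14 mice gave 33 and 19 (33 and 18 of them shared) and DESeq2 494 and 714 (161 and 106 shared). Without 1 mouse at a time the counts ran from 23 to 249 higher and from 7 to 167 lower, and for the test of the difference between genotypes from 0 to 0 calls, against 13 with DESeq2. The cause of these changes was not tested. Upper-quartile factors gave 137 and 132 calls, so that 50.9% of calls were higher, against 60.3% with TMM. No called gene changed direction in any setting, which the lack of overlap between the groups of each called gene made nearly certain beforehand. The 8 KO mice share only replicate numbers, since the deviations of same-numbered mice correlated between −0.17 and 0.25 and 1 of 4 normal mice correlated best with its own number. A fit with the replicate block gave 174 higher and 108 lower genes, of which 129 and 64 were shared, and the same fit called 0 genes in the test of the difference. The difference in the mitochondrially encoded share of counts stayed between −6.50 and −5.12 percentage points without 1 mouse. Depth limits genes near the floor of 3 counts per library.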

Other observations

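Of 84 tested cytosolic ribosomal protein genes, all had a log2 fold change above 0, with a median of 0.24, and 0 were called by edgeR, with 13 at an unadjusted p under 0.05 and 2 called by DESeq2. Their summed level was 10769 to 14329 CPM in normal mice and 12785 to 15667 CPM in ischemic mice, so the groups overlapped. Fibroblast markers ran the other way, with 5 of 5 below 0 and a median of −1.16, and their sum was 1666 to 10317 CPM in normal mice and 3160.4 to 4134 CPM in ischemic mice. None of the 5 was called by edgeR or DESeq2, and 0 had an unadjusted p under 0.05.

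White adipocyte markers had a median of −0.64 and summed to 2019.9 to 3612 CPM in normal mice and 892 to 2757 CPM in ischemic mice. Gapt, a membrane adaptor gene named here after its values were seen, had 133 counts over the 4 normal mice and 3 over the 4 ischemic mice, a ratio of summed CPM of 40.8 (exact 95% interval 13.7 to 200.3, counting error only).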
